A study of Mus musculus with 6 samples.

Results

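The genes described here are linked to macrophages that engulf debris and store lipid. Not all are particular to macrophages, as Lamp1 and Lamp2 belong to every lysosome and endothelial cells also carry Cd36. The genes were chosen by name, with earlier results of these data known, as 36 symbols of disease-associated microglia, lysosomal protease, scavenger and border macrophage genes. All were found among the 21899 genes of the count table. All 36 also passed the filter on low counts, which left 14956 genes in the test. Microglia are the resident macrophages of brain tissue. When they meet myelin debris, dying cells or plaques they can enter the disease-associated state, in which the lipid receptor Trem2 signals through its adaptor Tyrobp and genes of engulfment, lysosomal digestion and lipid handling are transcribed together. Macrophages that take up more lipid than they can export keep it in droplets coated by perilipins and are then known as foam cells. Border macrophages line the meninges, vessels and choroid plexus and carry scavenger receptors such as Cd163 and Mrc1.

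The 6 libraries came from whole thalamus tissue of male wild-type C57BL/6J mice, purchased at 8 to 10 weeks of age, and were sequenced in bulk. Every mouse had received a single gamma-ray dose of 50 Gy to the left thalamus and, 2 weeks later, 2 µL of virus in the thalamus. Tissue for sequencing was collected 6 weeks after the irradiation. The 3 RC mice received AAV9 GFAP104::tdTomato, a vector for a red fluorescent protein alone, and the 3 RN mice received AAV9 GFAP104::mND1-tdTomato, which adds mouse NeuroD1, a transcription factor of neuronal differentiation. The GFAP104 promoter joins an EF1α enhancer to a short GFAP promoter and is meant to keep the transgene in astrocytes, so macrophages were not the targeted cells. Both groups were irradiated and injected, and the comparison asks how the NeuroD1 vector changed the irradiated thalamus. Unirradiated mice were not analysed here. Nothing in the labels says more of the replicates than their number, so the p-values measure the spread between these libraries.

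Between 16561663 and 18657015 reads were counted on genes in each library, and the lowest count of any member in any mouse was 8. As a check of the labels, Neurod1 had 84, 91 and 90 counts in RC replicates 1, 2 and 3 and 1123, 1711 and 910 counts in RN replicates 1, 2 and 3. Thalamic neuron markers were all detected, and their 12 genes summed to between 1253 and 2461 CPM in RC and between 976 and 1834 CPM in RN. All 20 markers of homeostatic microglia and all 19 pan-myeloid markers passed the filter, and none was at 0. Choroid plexus markers differed widely between the mice, with 14 genes that summed to between 703 and 11132 CPM in RC and between 407 and 552 CPM in RN. Astrocyte markers (between 6542 and 8335 CPM in RC and between 4527 and 5768 CPM in RN, 12 genes) and endothelial markers (between 485 and 571 CPM in RC and between 349 and 441 CPM in RN, 12 genes) were also lower in RN in these sums.

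The members lay higher in RN in direction, but none passed the test. In edgeR's quasi-likelihood test over all genes, 0 of 36 members reached an adjusted p under 0.05 with a fold change of at least 2, a call that 11 genes or 0.0735% of all tested genes reached in either direction. The smallest adjusted p of a member was 0.0630, shared by Cd5l, Gpnmb and Plin2. At an unadjusted p under 0.05, 18 of 36 members were higher in RN and 0 were lower, against 5.44% and 6.33% of all tested genes. The RN mice all lay above the RC mice for 14 members and below them for 0, against 8.18% of all tested genes above. A positive log2 fold change was fitted for 34 members, or 94.4%, against 50.8% of all tested genes. The members' median log2 fold change was 0.36, against 0.0037 for all tested genes. As the members were chosen with earlier results of these data known, these comparisons are descriptions and not a test. DESeq2's Wald test called 5 members, Cd5l, Gpnmb, Spp1, Plin2 and Itgax, at an adjusted p under 0.05 and at least 2-fold, against 0.655% of all tested genes called higher. Without the fold threshold it passed 13 members, against 1.51% of all tested genes. In bulk tissue, more cells of a type and more RNA per cell cannot be told apart.

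**Figure D1:**
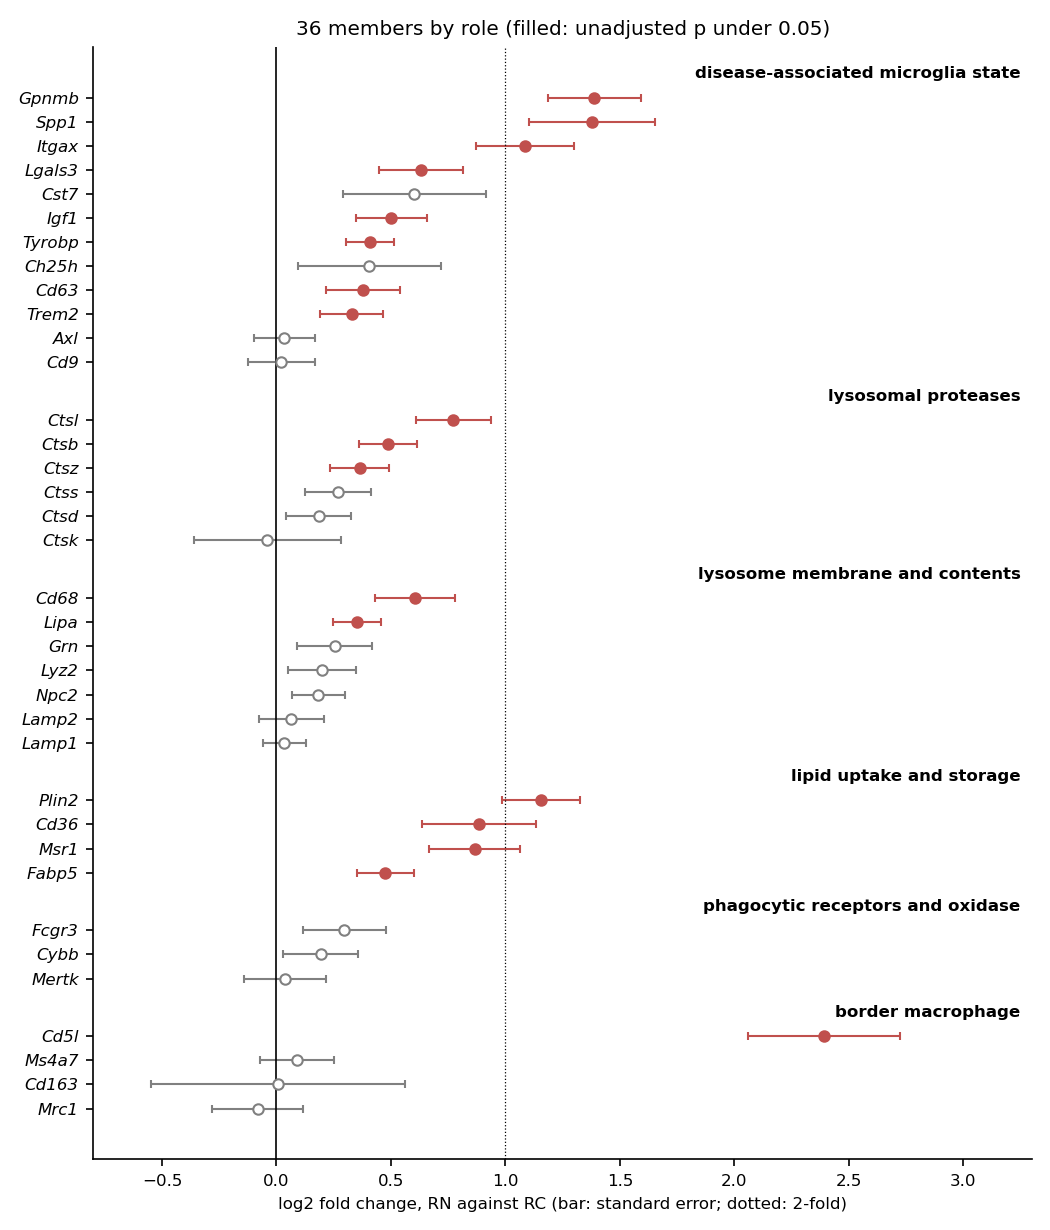
Fitted log2 fold change of each of the 36 members, RN against RC, in 6 role groups, with bars of 1 standard error from edgeR (3 mice a group) and a dotted line at 2-fold. The 18 filled points have an unadjusted p under 0.05 and all lie to the right of 0, and 5 members lie past the dotted line.

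The counts also give the order of the levels in RC, on the scale of read counts scaled to library size (CPM) per kilobase of transcript. Lyz2, a lysozyme made by myeloid cells, stood highest at a level of 1456 CPM per kb, followed by the aspartyl protease Ctsd at 1288 and the cysteine protease Ctss at 418. Lyz2 is nearly identical in sequence to Lyz1, so its count is uncertain. Lamp1, Ctsb and Spp1 came next, at levels of 309, 285 and 159 CPM per kb. Lowest were the scavenger receptors Msr1, at 1.02, and Cd163, at 0.143 CPM per kb. In RC, 29 of 36 members stood above the median level of all tested genes, which was 5.14 CPM per kb. The members of smallest p were spread along this order, from Ctsb near the top to Msr1 near the bottom. Spp1 stood at a level of 414 CPM per kb in RN and Gpnmb at 171, against 65.1 in RC.

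Of the 12 genes of the disease-associated state, 8 were higher in RN at an unadjusted p under 0.05 and 5 had groups that did not overlap, with a median log2 fold change of 0.46. For this and later role groups, the shares of all tested genes were 5.44% (higher at that p) and 8.18% (RN all above RC). Gpnmb (ENSMUSG00000029816), a transmembrane glycoprotein of the lysosome and cell surface of lipid-loaded macrophages, was at 358, 512 and 402 CPM in RC replicates 1, 2 and 3 and 863, 1436 and 1033 CPM in RN replicates 1, 2 and 3. Each RN mouse stood above every RC mouse. Means were 424 ± 79.4 CPM for RC against 1111 ± 295 CPM for RN (SD, n = 3), a log2 fold change of 1.39 ± 0.202 (SE) with an adjusted p of 0.0630 in edgeR's test. Spp1 (ENSMUSG00000029304), the secreted matrix protein osteopontin, was at 221, 302 and 265 CPM in RC replicates 1, 2 and 3 and 409, 960.2 and 677 CPM in RN replicates 1, 2 and 3. Again the groups did not overlap, though the RN mice differed more among themselves than the RC mice did. Its log2 fold change was 1.38 ± 0.276 and its adjusted p 0.116 in edgeR. Itgax (ENSMUSG00000030789), the CD11c integrin chain that marks dendritic cells and activated microglia, was at 69.0, 75.9 and 48.1 CPM in RC replicates 1, 2 and 3 and 103, 169 and 138 CPM in RN replicates 1, 2 and 3. RN replicate 1 was nearest to the RC mice and RN replicate 2 farthest. Its log2 fold change was 1.09 ± 0.213, with an adjusted p of 0.108 in edgeR.

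The receptor pair at the head of the pathway had smaller fitted log2 fold changes. Tyrobp (ENSMUSG00000030579), the adaptor through which Trem2 signals, was at 79.1, 88.7 and 84.0 CPM in RC replicates 1, 2 and 3 and 97.4, 122 and 115 CPM in RN replicates 1, 2 and 3. The RN mice were all above the RC mice by a small margin, with a log2 fold change of 0.41 ± 0.105 and an adjusted p of 0.173 in edgeR. Trem2 itself, with a log2 fold change of 0.33 ± 0.139, overlapped between the groups. The growth factor Igf1, at 0.50 ± 0.156, was the fifth gene of this group whose groups did not overlap. Lgals3, a galectin that binds damaged lysosomes, overlapped, with a log2 fold change of 0.63 ± 0.185 and an adjusted p of 0.216 in edgeR. The tetraspanin Cd63 had 0.38 ± 0.161 and also overlapped. Of the remaining 4 genes, which missed an unadjusted p under 0.05, the protease inhibitor Cst7 and the cholesterol hydroxylase Ch25h had log2 fold changes of 0.60 ± 0.313 and 0.41 ± 0.314. Axl, a receptor for apoptotic cells, and the tetraspanin Cd9 were near 0, at 0.03 ± 0.131 and 0.02 ± 0.148. Among these 12 members the largest log2 fold changes were those of Gpnmb, Spp1 and Itgax, and whether these differ from that of Trem2 was not tested.

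**Figure D2:**
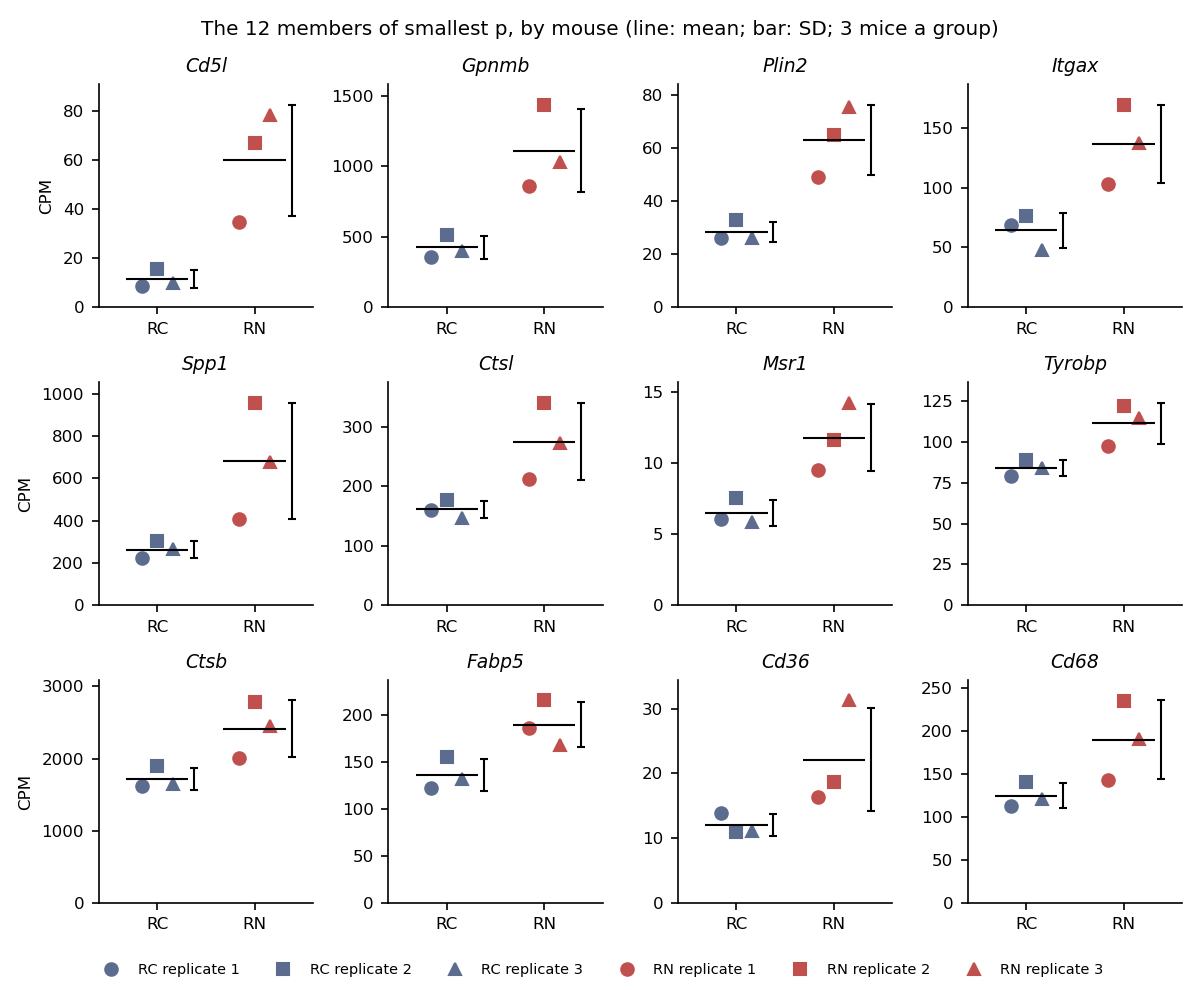
CPM of the 12 members of smallest p in each of the 6 mice (points, with 1 shape per replicate number), with the mean (line) and SD (bar) of the 3 mice of each group and each axis starting at 0. For every gene shown the 3 RN mice lie above the 3 RC mice, with RN replicate 1 the lowest RN mouse in all panels but that of Fabp5.

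All 4 genes of lipid uptake and storage were higher in RN at an unadjusted p under 0.05, and all 4 had groups that did not overlap, with a median log2 fold change of 0.88. Plin2 (ENSMUSG00000028494), the perilipin that coats lipid droplets, was at 26.2, 32.7 and 26.0 CPM in RC replicates 1, 2 and 3 and 49.0, 64.8 and 75.4 CPM in RN replicates 1, 2 and 3. The lowest RN mouse stood well above the highest RC mouse. Means were 28.3 ± 3.84 CPM for RC against 63.1 ± 13.3 CPM for RN (SD, n = 3), a log2 fold change of 1.16 ± 0.170 (SE) with an adjusted p of 0.0630 in edgeR. Msr1 (ENSMUSG00000025044), the scavenger receptor that takes up modified lipoproteins, was at 6.06, 7.53 and 5.84 CPM in RC replicates 1, 2 and 3 and 9.52, 11.6 and 14.3 CPM in RN replicates 1, 2 and 3. The groups were apart at this low level, with a log2 fold change of 0.87 ± 0.199 and an adjusted p of 0.137 in edgeR. Cd36 (ENSMUSG00000002944), a receptor for fatty acids and oxidised lipoproteins that endothelial cells also carry, was at 13.9, 10.9 and 11.1 CPM in RC replicates 1, 2 and 3 and 16.4, 18.7 and 31.3 CPM in RN replicates 1, 2 and 3. RN replicate 3 stood far above the other RN mice, and the nearest mice of the 2 groups were close together. Its log2 fold change was 0.89 ± 0.249, with an adjusted p of 0.204 in edgeR. Fabp5 (ENSMUSG00000027533), which carries fatty acids inside cells, was at 122, 155 and 132 CPM in RC replicates 1, 2 and 3 and 186, 215 and 167 CPM in RN replicates 1, 2 and 3. Here RN replicate 3 was the lowest RN mouse, and the log2 fold change was 0.48 ± 0.126 with an adjusted p of 0.185 in edgeR.

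Among the 6 lysosomal proteases, 3 were higher in RN at an unadjusted p under 0.05 and 2 had groups that did not overlap. Ctsl (ENSMUSG00000021477), a cysteine protease, was at 160.0, 176 and 147 CPM in RC replicates 1, 2 and 3 and 212, 340.4 and 272 CPM in RN replicates 1, 2 and 3. All RN mice were above all RC mice, with a log2 fold change of 0.77 ± 0.165 and an adjusted p of 0.126 in edgeR. Ctsb (ENSMUSG00000021939), a cysteine protease of much higher level, was at 1619.8, 1898 and 1648 CPM in RC replicates 1, 2 and 3 and 2006, 2786 and 2453 CPM in RN replicates 1, 2 and 3. The groups were apart here too, though by little, with a log2 fold change of 0.49 ± 0.126 and an adjusted p of 0.175 in edgeR. Ctsz, the third at an unadjusted p under 0.05, overlapped between groups and had a log2 fold change of 0.36 ± 0.130. Ctss and Ctsd, the proteases of highest level per kilobase in RC, had log2 fold changes of 0.27 ± 0.145 and 0.18 ± 0.143, and both overlapped. Ctsk, the collagen-degrading protease of osteoclasts and fibroblasts, had -0.04 ± 0.321.

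The other lysosomal members divided in the same way, with 2 of 7 at an unadjusted p under 0.05. Cd68 (ENSMUSG00000018774), a glycoprotein of macrophage lysosomes, was at 113, 141 and 122 CPM in RC replicates 1, 2 and 3 and 143, 236 and 191 CPM in RN replicates 1, 2 and 3. RN replicate 1 was barely above RC replicate 2, and the log2 fold change was 0.60 ± 0.174 with an adjusted p of 0.208 in edgeR. Lipa, the acid lipase that frees cholesterol from engulfed lipoproteins, had a log2 fold change of 0.35 ± 0.106 and groups that did not overlap. Lamp1 and Lamp2, structural proteins of every lysosome, were near 0 at 0.03 ± 0.0943 and 0.06 ± 0.142. The cholesterol carrier Npc2, the granulin precursor Grn and Lyz2 had log2 fold changes between 0.18 and 0.25, and all 3 overlapped.

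None of the 3 phagocytic receptor and oxidase genes reached an unadjusted p under 0.05. Fcgr3 (ENSMUSG00000059498), an activating receptor for antibody-coated particles, had the smallest p of them and was at 57.7, 74.5 and 69.5 CPM in RC replicates 1, 2 and 3 and 59.8, 94.9 and 92.8 CPM in RN replicates 1, 2 and 3. RN replicate 1 stood within the RC range, and the log2 fold change was 0.30 ± 0.182 with an adjusted p of 0.607 in edgeR. The Fc receptor genes resemble each other, so reads may have been divided between them. Cybb, the catalytic subunit of the phagocyte oxidase, had 0.19 ± 0.164, and the apoptotic-cell receptor Mertk had 0.04 ± 0.179.

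Of the 4 border macrophage members, 1 reached an unadjusted p under 0.05. Cd5l (ENSMUSG00000015854), a secreted scavenger protein of tissue macrophages that modulates lipid synthesis, had the largest difference of all members and was at 8.69, 15.7 and 9.85 CPM in RC replicates 1, 2 and 3 and 34.6, 66.9 and 78.2 CPM in RN replicates 1, 2 and 3. The lowest RN mouse had more than the highest RC mouse, and the RN mice spread widely. Means were 11.4 ± 3.77 CPM for RC against 59.9 ± 22.6 CPM for RN (SD, n = 3), a 5.25-fold difference and a log2 fold change of 2.39 ± 0.331 (SE), with an adjusted p of 0.0630 in edgeR. The mannose receptor Mrc1 had a log2 fold change of -0.08 ± 0.199 and the tetraspan protein Ms4a7 had 0.09 ± 0.162. Cd163, the hemoglobin scavenger receptor, had 24, 8 and 9 counts in RC replicates 1, 2 and 3 and 16, 18 and 8 counts in RN replicates 1, 2 and 3. At these counts its log2 fold change of 0.01 ± 0.555 has a wide interval.

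With the replicate number as a block, edgeR called 2 members higher, Cd5l and Gpnmb, with adjusted p of 0.0364 and 0.00936 and log2 fold changes of 2.36 and 1.37. It called 0.114% of all tested genes higher. Without RN replicate 1 edgeR called 4 members, Cd5l, Plin2, Spp1 and Gpnmb, with adjusted p of 0.0151, 0.0245, 0.0280 and 0.0407. That fit called 0.167% of all tested genes higher. Leaving out any other mouse gave 0 calls.

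The promoters of the 3 members of smallest p, of Itgax and of the lysosomal genes Ctsl and Lamp1 are shown as examples. Each is the 250 bases before the start listed for the gene in RefSeq on GRCm38.p6, read 5′ to 3′ on the gene's own strand. Whether transcription begins at each listed start, that of Ctsl among them, was not tested. Cd5l lies at chr3:87357631-87357880 on the plus strand, Gpnmb at chr6:49036268-49036517 on the plus strand, Plin2 at chr4:86670060-86670309 on the minus strand, Itgax at chr7:128129300-128129549 on the plus strand, Ctsl at chr13:64370521-64370770 on the minus strand and Lamp1 at chr8:13158911-13159160 on the plus strand. Capitals mark matches to CACGTG, an E-box core bound by the Mitf and Tfeb family of lysosomal regulators, to TGANTCA, the AP-1 element, or to GAGGAAG, a core bound by the myeloid factor PU.1, each searched on both strands.
Cd5l: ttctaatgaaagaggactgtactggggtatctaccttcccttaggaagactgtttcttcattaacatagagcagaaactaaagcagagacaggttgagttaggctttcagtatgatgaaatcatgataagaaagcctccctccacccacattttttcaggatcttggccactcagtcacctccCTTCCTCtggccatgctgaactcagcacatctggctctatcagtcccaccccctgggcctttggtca
Gpnmb: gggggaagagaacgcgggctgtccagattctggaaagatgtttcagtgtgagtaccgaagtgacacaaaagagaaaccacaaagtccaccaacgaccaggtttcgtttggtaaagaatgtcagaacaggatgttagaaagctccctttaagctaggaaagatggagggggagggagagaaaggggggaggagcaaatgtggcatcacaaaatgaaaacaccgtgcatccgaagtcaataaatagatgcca
Plin2: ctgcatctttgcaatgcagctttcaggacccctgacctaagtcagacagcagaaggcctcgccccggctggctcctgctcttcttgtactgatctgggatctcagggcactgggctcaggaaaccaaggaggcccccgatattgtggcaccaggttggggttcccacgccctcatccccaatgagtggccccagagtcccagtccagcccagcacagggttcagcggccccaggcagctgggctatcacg
Itgax: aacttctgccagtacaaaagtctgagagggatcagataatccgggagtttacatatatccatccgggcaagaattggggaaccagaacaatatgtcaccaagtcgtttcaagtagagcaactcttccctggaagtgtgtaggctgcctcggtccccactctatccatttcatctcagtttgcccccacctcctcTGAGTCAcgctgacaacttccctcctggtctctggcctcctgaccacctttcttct
Ctsl: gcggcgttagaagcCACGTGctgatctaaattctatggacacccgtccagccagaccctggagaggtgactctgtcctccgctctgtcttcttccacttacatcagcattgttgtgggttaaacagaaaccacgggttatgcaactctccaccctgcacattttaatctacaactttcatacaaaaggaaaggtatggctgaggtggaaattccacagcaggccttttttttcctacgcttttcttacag
Lamp1: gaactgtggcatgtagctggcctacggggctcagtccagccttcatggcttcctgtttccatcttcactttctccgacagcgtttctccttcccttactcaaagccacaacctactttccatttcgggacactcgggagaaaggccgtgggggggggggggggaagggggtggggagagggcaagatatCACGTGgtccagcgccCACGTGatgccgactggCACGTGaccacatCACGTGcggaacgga

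Lamp1, whose log2 fold change was near 0, held 4 matches to the E-box core, and Ctsl held 1. A PU.1 core lay in the Cd5l window and an AP-1 element in that of Itgax, while the windows of Gpnmb and Plin2 held none of the 3. Over all 32 members with a promoter in the RefSeq table, the E-box core was matched in 3 (Ctsd, Ctsl and Lamp1), AP-1 in 6 and the PU.1 core in 10. Among 27025 genes with a promoter, 6.86%, 7.82% and 12% held them. Of the 14 members with a promoter and an unadjusted p under 0.05, 1 held the E-box core, 4 AP-1 and 6 the PU.1 core, against 2, 2 and 4 of the other 18. No promoter was listed for Ctsb, Tyrobp, Fabp5 and Msr1.

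The members also shared an order of mice. RN replicate 2 had the highest level of the 6 mice for 23 of 36 members, or 63.9%, against 13.9% of all tested genes. RN replicate 3 had the highest level for 10, or 27.8%, against 16.5% of all tested genes. Among the RN mice, replicate 1 was the lowest for 32 members, or 88.9%, against 34.9% of all tested genes. RN replicates 2 and 3 both stood above every RC mouse for 25 members, against 13.6% of all tested genes. RN replicate 1 did so for 15 members, against 27.1% of all tested genes, and it was below every RC mouse for 7, against 24.7% of all tested genes. Summed over the members, the level was 11764 CPM in RN replicate 1, within the RC range of 10696 to 12489.7 CPM, but 17109.9 and 15233 CPM in RN replicates 2 and 3. Ctsd, Ctsb and Lyz2 made the largest parts of that sum. RN replicate 1 stood above every RC mouse in the sums of the disease-associated (2218 against at most 1843 CPM), lipid (260 against 206) and border (101 against 93.1) genes. Gpnmb (863 CPM) and Spp1 (409 CPM) made the largest parts of its disease-associated sum. Among the border genes only Cd5l had RN replicate 1 above every RC mouse, and Mrc1 (15.0 CPM) and Ms4a7 (50.4 CPM) had it below every RC mouse. RN replicate 1 was within the RC range for the sum of the proteases. In the sums of the other lysosomal and the phagocytic receptor genes it was below that range.

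**Figure D3:**
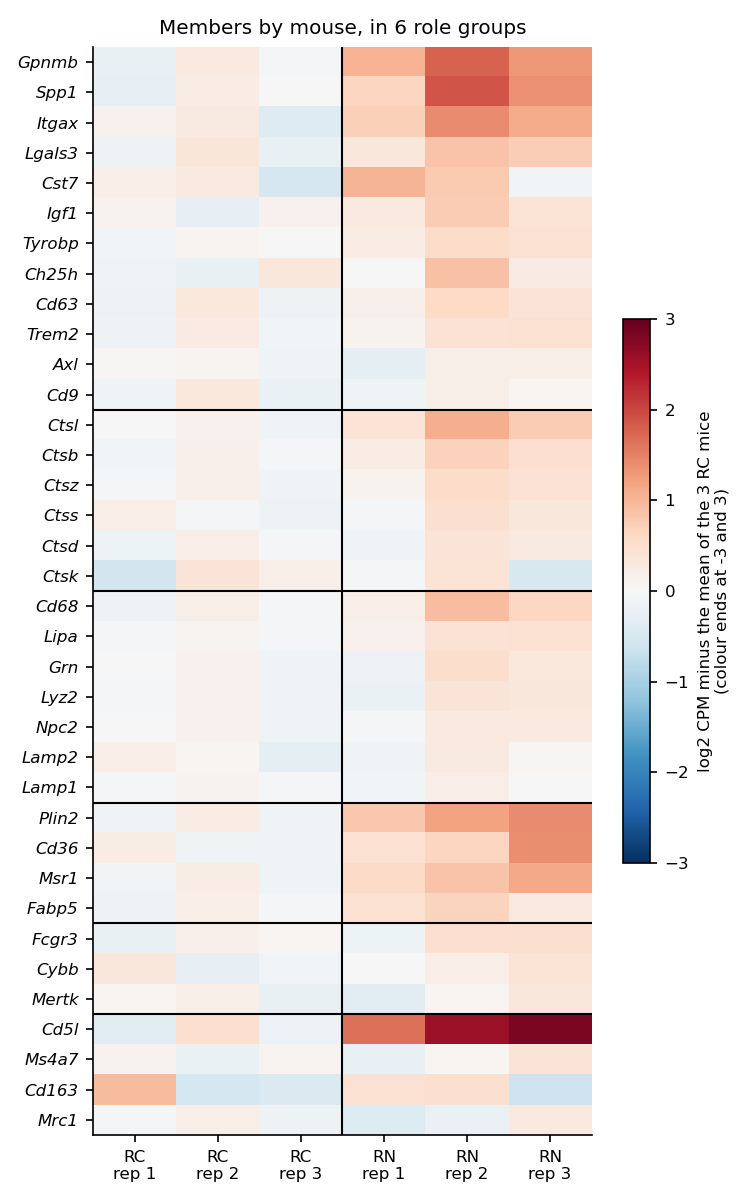
Log2 CPM of the 36 members (rows, in 6 role groups separated by lines) in the 6 mice (columns), less the mean of the 3 RC mice. Red cells, which mark levels above the RC mean, are most frequent in RN replicates 2 and 3, and RN replicate 1 is the lowest RN mouse for 32 members.

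General markers of macrophages gave a similar order of the RN mice. The 19 pan-myeloid genes, among them the transcription factor Spi1, the integrin Itgam and the complement chains C1qa, C1qb and C1qc, summed to between 1749 and 1928 CPM in RC and between 1714 and 2523 CPM in RN. As a score, the mean of their log2 CPM centred over the 6 mice, they gave -0.04, -0.07 and -0.19 in RC replicates 1, 2 and 3 and -0.22, 0.30 and 0.22 in RN replicates 1, 2 and 3. RN replicate 1 was thus the lowest of the 6 mice on this score and RN replicate 2 the highest. With the score as a covariate in edgeR, the members' median log2 fold change was 0.19, and 13 of 36 were higher in RN at an unadjusted p under 0.05, with 0 lower, against 3.83% and 6.41% of all tested genes. Those 13 held the 12 members of smallest p and Lgals3. Their log2 fold changes lay between 0.30 (Tyrobp) and 1.91 (Cd5l), with Gpnmb at 1.15, Plin2 at 0.94, Spp1 at 0.90 and Itgax at 0.79, and 0 of them reached an adjusted p under 0.05. The score has a value for each mouse but spends 1 of the few degrees of freedom left.

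Set against the pan-myeloid score in each mouse, so as a difference of log2 values, the RN mice were all above the RC mice for 12 members, against 1.85% of all tested genes. These were Gpnmb, Spp1, Lgals3, Itgax, Tyrobp, Ctsb, Ctsl, Cd68, Plin2, Msr1, Cd36 and Cd5l. The share was 33.3% of the members and 15.8% of the 19 pan-myeloid genes. As those 19 genes form the score, their average difference from it was the same in every mouse by construction. Their share is therefore no independent measure. For 18 other genes of the disease-associated state the share was 27.8%. For 1 member, Axl, the RN mice were all below the RC mice, against 11.3% of all tested genes. In all, 9 members with positive log2 fold changes by group alone came to lie under 0 with the pan-myeloid covariate. Farthest under 0 among them were Mertk, Axl, Cd9 and Lamp2, at -0.20, -0.16, -0.10 and -0.08. With a choroid plexus score as the covariate the members' median was 0.46, above that of the fit of group alone. That score lay between -0.71 and 2.93 in RC and between -1.57 and -1.11 in RN. As the groups did not overlap on it, the parts of group and choroid plexus cannot be told apart. The standard error of Cd5l was 0.508 in that fit, against 0.331 by group alone. The part of astrocyte and endothelial markers in these values was not tested.

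**Figure D4:**
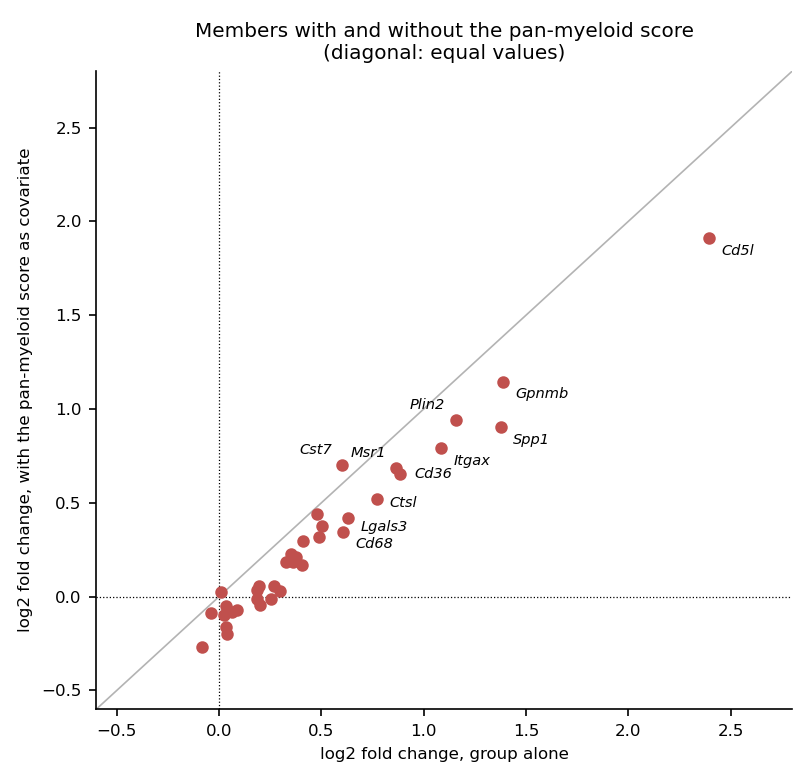
Fitted log2 fold change of each of the 36 members, RN against RC, by group alone (horizontal axis) and with the pan-myeloid score as a covariate (vertical axis), with a diagonal of equal values and members above 0.6 named. Most points lie under the diagonal, and Cd5l, Gpnmb, Plin2, Spp1 and Itgax remain the members farthest from 0.

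Other genes of the same pathways give the setting. For each list, the shares of all tested genes at an unadjusted p under 0.05 were 5.44% higher and 6.33% lower. The second list of disease-associated microglia genes held 18 genes, of which 9 were higher and 3 lower in RN at an unadjusted p under 0.05, with a median log2 fold change of 0.25. It held the only gene of these lists that edgeR called, Atp6v0d2, a subunit of the vacuolar proton pump, at 1.82 ± 0.139 with an adjusted p of 0.00461. Clec7a, a receptor for fungal glucans, had 1.04 ± 0.161 and an adjusted p of 0.0666 in edgeR, and the lipoprotein lipase Lpl had 0.91 ± 0.195. The 3 lower genes were Cd34 (-0.71 ± 0.154), Serpine2 (-0.39 ± 0.106) and Fth1 (-0.43 ± 0.122). RN mice lay all above RC mice for 6 of the 18 genes and all below for 4, against 1223 and 1215 of 14956 tested genes. With the pan-myeloid covariate, 4 were higher and 4 lower at an unadjusted p under 0.05, against 3.83% and 6.41% of all tested genes. Homeostatic microglia genes, which keep the identity of resting microglia, had a median of 0.11 over 20 genes, with 2 higher (Olfml3 and Jun) and 0 lower at an unadjusted p under 0.05. Their sums overlapped, between 3695 and 4170.2 CPM in RC and between 3373 and 4275 CPM in RN. Fitted with the pan-myeloid covariate, 0 of the 20 were higher and 3 lower at an unadjusted p under 0.05. These 3 were Tmem119, Cx3cr1 and Csf1r, and the shares of all tested genes were 3.83% higher and 6.41% lower. The pan-myeloid genes had a median of 0.26, with 3 of 19 higher (Cd53, Irf8 and C1qc) at an unadjusted p under 0.05.

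Of 41 other lysosomal genes, 7 were higher and 1 lower at an unadjusted p under 0.05, with a median of 0.09. The smallest p belonged to 3 acid hydrolases, Gaa at 0.49 ± 0.105, Galns at 0.60 ± 0.152 and Gla at 0.60 ± 0.155, all in log2 fold change. Of 21 tested genes of cholesterol efflux and foam cells, 3 were higher and 0 lower, with a median of 0.05. These were the cholesterol exporter Abcg1, at 0.49 ± 0.0813 with an adjusted p of 0.0696 in edgeR, the lipoprotein receptor ligase Mylip, at 0.64 ± 0.117, and Lpl. Of 23 tested genes of other phagocytic receptors and bridging proteins, 2 were higher and 0 lower, against 5.44% and 6.33% of all tested genes. The median of this list was -0.01. The Fc receptor Fcgr4 led them at 1.67 ± 0.266 with an adjusted p of 0.0696 in edgeR, followed by Fcgr1 at 0.44 ± 0.181 and by the bridging protein Mfge8 at 0.55 ± 0.270, which missed an unadjusted p under 0.05.

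Other border macrophage genes, 17 of 20 tested, had a median of -0.17, with 2 higher and 3 lower at an unadjusted p under 0.05. For this list and the next, the shares of all tested genes were 5.44% higher and 6.33% lower. The folate receptor Folr2 had 1.02 ± 0.387, the endothelin receptor Ednrb -0.40 ± 0.113 and the transglutaminase F13a1 -0.74 ± 0.284. Lyve1, Cd209f and Cd209g had at most 24, 3 and 3 counts in any mouse. RC replicate 1 stood apart in this list, with 15232 counts of the invariant chain Cd74 against 2254 to 3414 in the other mice. Monocyte and neutrophil genes, 11 of 15 tested, had a median of -0.35, with 0 higher and 1 lower (Lcn2, at -1.28 ± 0.363), and they summed to between 301 and 403 CPM in RC and between 184 and 322 CPM in RN. Their neutrophil marker Ly6g had at most 9 counts in any mouse. Oligodendrocyte markers had a median of -0.13 and fibroblast markers a median of 0.55, with sums of the latter between 137 and 277 CPM in RC and between 209.7 and 406 CPM in RN. The fibroblast sum, like the members, was highest in RN replicate 2, and its part in the members' values was not tested.

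**Figure D5:**
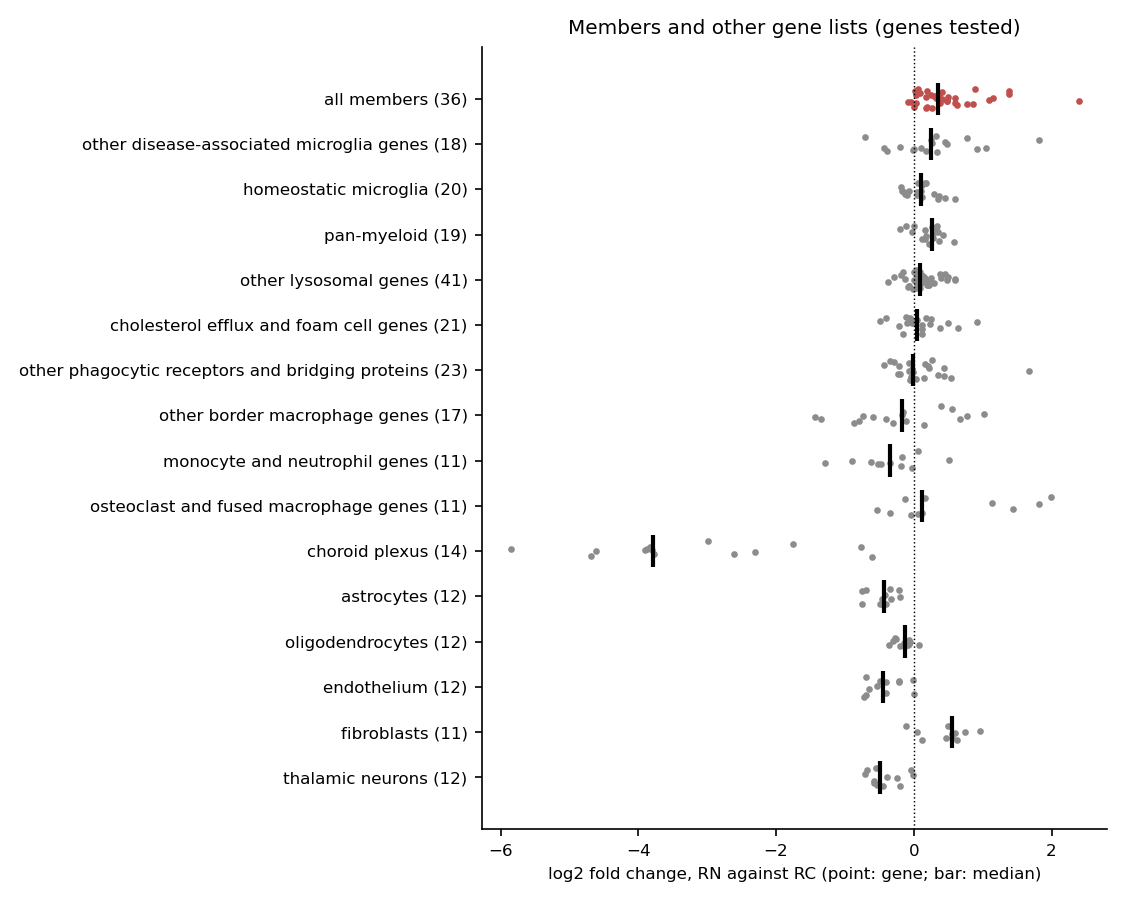
Fitted log2 fold change, RN against RC, of every tested gene (points) of the 36 members (top row) and of the other gene lists (rows, with the number of genes tested), with the median of each list as a black bar. The members' median of 0.36 lies to the right of 0, as do those of the other disease-associated (0.25) and pan-myeloid (0.26) genes, while that of the choroid plexus markers lies at -3.79.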

How the data were processed

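Thalamus RNA of 3 RC and 3 RN mice was prepared with the NEBNext Ultra kit. The authors deposited whole-number counts of reads per gene, without normalization. The submitters' processing notes name fastp 0.18.0, FastQC, HISAT2 2.2.4, RSEM 1.2.19 and GRCm39, in no stated order. RSEM estimates counts, so these may have been rounded, and reads of near-identical genes are divided by estimate. The annotation release and the use of strand are not given in the sources used here. All 6 columns matched a sample, and 30 rows without a symbol kept their identifiers.

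Counts were filtered (filterByExpr, minimum count 10), normalized with TMM and tested with the quasi-likelihood test of edgeR 4.0.16 in R 4.3.3 on group alone (biological coefficient of variation 17.4%). The p-values were adjusted over 14956 genes by the Benjamini-Hochberg method, and calls required an adjusted p under 0.05 with at least a 2-fold difference. CPM values carry no prior count. Scores used a prior count of 2 and fitted fold changes one of 0.125. Lengths came from GENCODE M21 (14936 of the tested genes and all 36 members), and promoters from RefSeq. A count of 0 allows up to 3 counts, for counting error only. The test was tried on simulated counts first. DESeq2 1.42.0 and the other settings of the closing section were run as alternatives.

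The members and lists were chosen with earlier results of these data known. Values of every mouse are given for the 12 members of smallest p and the first of each role group, and up to 3 genes by smallest p are named from the other lists of macrophage genes; other names were chosen once values were known. Replicate numbers recur in both groups, and mice of the same number deviated together (r across genes of 0.173, 0.120 and 0.209), so blocked values are given where they change a call. So did RC replicate 1 with RN replicate 2 (0.156).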

Additional observations from a re-analysis of the deposited data

How the results depend on the processing

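Over all genes, edgeR called 9 higher and 2 lower. These counts were 98 and 81 by DESeq2, 36 and 7 without the filter on low counts, 17 and 5 with the replicate block, 5 and 3 with the pan-myeloid covariate and 0 and 1 with the choroid plexus covariate, and lay between 3 and 25 and between 0 and 18 when each mouse was left out. The 0 members called became 5 by DESeq2, 3 without the filter (Cd5l, Plin2 and Gpnmb), 2 with the replicate block and up to 4 when a mouse was left out. The block changed no other member's call. The members' median log2 fold change stayed positive under every alternative and lay between 0.26 and 0.46 when each mouse was left out.

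Of the 36 members, 24 kept their sign under all 14 alternatives, and 12, none larger than 0.25 in log2 size by group alone, changed it under at least 1. The pan-myeloid covariate turned Axl (-0.162), Cd9 (-0.101), Ctsd (-0.0134), Grn (-0.0119), Lamp1 (-0.0484), Lamp2 (-0.0827), Lyz2 (-0.0468), Mertk (-0.198) and Ms4a7 (-0.0738). The choroid plexus covariate turned Ctsk (0.0064), Mrc1 (0.215) and Ms4a7 (-0.0181), and edgeR without its legacy option turned Cd163 (-0.000996). With each mouse left out, values lay between -0.0455 and 0.168 for Axl, -0.243 and 0.655 for Cd163, -0.0719 and 0.199 for Cd9, -0.303 and 0.156 for Ctsk, -0.0537 and 0.0928 for Lamp1, -0.0587 and 0.173 for Lamp2, -0.136 and 0.197 for Mertk, -0.315 and 0.0607 for Mrc1 and -0.0914 and 0.227 for Ms4a7. The causes were not tested. Cd163 has no value under the filter of at least 10 counts in every mouse.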

Other observations

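Osteoclasts and fused macrophages digest bone or large particles through acid secretion, and a list of their genes overlaps the lysosomal programme. Of its 14 genes, 11 were tested, with a median log2 fold change of 0.12. At an unadjusted p under 0.05, 3 were higher and 0 lower in RN, against 5.44% and 6.33% of all tested genes. Besides Atp6v0d2, described above, these were Acp5, the tartrate-resistant acid phosphatase, and Calcr, the calcitonin receptor. Acp5 had 237, 166 and 170 counts in RC replicates 1, 2 and 3 and 364, 701 and 534 counts in RN replicates 1, 2 and 3. Its groups did not overlap, with a log2 fold change of 1.43 ± 0.222 (SE) and an adjusted p of 0.0666 in edgeR's quasi-likelihood test. Calcr had 93, 43 and 25 counts in RC and 173, 180 and 301 counts in RN. Its log2 fold change was 1.99 ± 0.433, with an adjusted p of 0.129 in edgeR. Calcr is also made by hypothalamic neurons. The fusion factors Dcstamp and Ocstamp stayed at or under 18 and 4 counts in every mouse. The collagenase Mmp9 and the osteoclast receptor Tnfrsf11a had log2 fold changes of -0.53 ± 0.441 and -0.04 ± 0.163, and were named after their values were seen.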
